A study of Mus musculus with 35 samples.

Results

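The genes described here are 37 mouse genes of glucose uptake, glycolysis, lactate handling and the response to low oxygen. They were chosen by name, as the genes whose RefSeq entries the array's probes carry. No cut on measured values was used, but earlier results of these data were known when they were chosen. They are 37 of the 20886 genes with a named probe. In sorted T cells 33 of them, among 8622 genes in all, were bright enough to be tested, and over sorted cells and whole organs together 35 of 10636.

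RNA came from healthy wild type C57BL/6 female mice of 8 to 16 weeks, with no treatment or engineered allele in any group. CD8+ resident memory T cells (Trm), which stay in an organ and do not recirculate, were taken from liver (5 arrays), lung (6) and small intestine (6) as CD8b+ CD103+ cells in 2 rounds of magnetic positive selection. The reference was circulating effector memory cells (Tem) from the blood of the same mice (6 arrays), taken as CD8b+ cells after removal of CD62L+ cells. Dissociated but unsorted liver, lung and intestine, and blood mononuclear cells (PBMC), with 3 arrays each, showed what tissue cells left in a sort would contribute. From each sample 300 pg of RNA, with an integrity number above 8.0, went through 2 rounds of amplification before 1-color labeling. Nothing in the sources used here ties an array to one mouse or says whether mice were pooled, so every p-value below measures the spread between these samples only.

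Glycolysis splits glucose into pyruvate. Glucose enters through transporters of the Slc2a family, hexokinases trap it by phosphorylation, phosphofructokinase and the enzymes that make its activator fructose 2,6-bisphosphate set the rate, and a run of shared enzymes from aldolase to pyruvate kinase completes the path. Lactate dehydrogenase then turns pyruvate into lactate for export through Slc16a carriers. Otherwise pyruvate dehydrogenase uses pyruvate inside the mitochondria, unless a Pdk kinase switches that enzyme off. When oxygen is scarce the transcription factor HIF-1 escapes the prolyl hydroxylases that mark it for destruction and raises many of these genes, and in T cells antigen signals through mTOR and Myc can raise the same genes in normal oxygen.

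HIF-1 binds a short core, ACGTG or GCGTG, the center of the hypoxia response element. Both were searched on both strands (as CACGT and CACGC on the other) in the 250 bases before each RefSeq start on GRCm38.p6, and CACGTG counts once per strand as overlapping matches. The windows of 6 members follow, 5' to 3' on the strand of the gene, with cores in capitals. Of these, 5 belong to genes called higher in lung or intestine Trm than in Tem. Pgk1, an enzyme that was not called in any comparison of sorted cells, is shown for contrast. They lie at chr9:108991652-108991901 (Pfkfb4, plus strand), chr6:142507958-142508207 (Ldhb, minus), chr10:59951771-59952020 (Ddit4, minus), chr6:82774455-82774704 (Hk2, minus), chr11:120948817-120949066 (Slc16a3, plus) and chrX:106186850-106187099 (Pgk1, plus).
Pfkfb4: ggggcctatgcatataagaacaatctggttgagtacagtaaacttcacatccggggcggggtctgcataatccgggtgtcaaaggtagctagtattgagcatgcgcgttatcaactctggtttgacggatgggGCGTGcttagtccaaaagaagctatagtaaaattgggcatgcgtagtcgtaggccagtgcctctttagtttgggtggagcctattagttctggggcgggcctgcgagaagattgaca
Ldhb: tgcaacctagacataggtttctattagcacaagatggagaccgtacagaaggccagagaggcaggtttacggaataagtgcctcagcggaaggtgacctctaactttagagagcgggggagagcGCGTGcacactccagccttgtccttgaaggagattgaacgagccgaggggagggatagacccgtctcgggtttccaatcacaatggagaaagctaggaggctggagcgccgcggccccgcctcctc
Ddit4: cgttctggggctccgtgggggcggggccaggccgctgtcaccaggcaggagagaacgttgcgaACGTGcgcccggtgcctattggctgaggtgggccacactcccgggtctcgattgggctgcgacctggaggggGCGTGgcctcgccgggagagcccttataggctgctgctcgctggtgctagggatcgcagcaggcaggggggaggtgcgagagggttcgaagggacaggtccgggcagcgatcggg
Hk2: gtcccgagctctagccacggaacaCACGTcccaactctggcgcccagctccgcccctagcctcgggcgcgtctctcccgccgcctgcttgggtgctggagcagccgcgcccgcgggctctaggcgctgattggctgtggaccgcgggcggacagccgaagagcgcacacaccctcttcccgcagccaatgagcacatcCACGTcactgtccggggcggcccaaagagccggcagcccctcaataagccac
Slc16a3: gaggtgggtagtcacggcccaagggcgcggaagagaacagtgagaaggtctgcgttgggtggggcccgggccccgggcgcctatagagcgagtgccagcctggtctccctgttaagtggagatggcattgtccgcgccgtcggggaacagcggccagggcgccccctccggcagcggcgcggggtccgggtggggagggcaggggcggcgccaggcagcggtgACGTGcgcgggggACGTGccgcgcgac
Pgk1: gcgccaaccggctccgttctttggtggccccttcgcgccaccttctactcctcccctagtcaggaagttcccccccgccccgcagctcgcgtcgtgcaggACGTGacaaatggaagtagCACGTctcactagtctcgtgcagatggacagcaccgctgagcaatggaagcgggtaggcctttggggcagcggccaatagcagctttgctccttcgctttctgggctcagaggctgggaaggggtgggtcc
A window was at hand for 34 members, and 31 of those had a core in at least 1 window. Of 48 member windows 39 held a core (81.2%), against 12679 of all 32851 windows in the table (38.6%). ACGTG stood in 50% of member windows and 16.6% of all windows, and GCGTG in 56.2% and 28.2%. Member windows were also richer in G and C, with a median of 61% against 52.4%, and both cores hold G and C, so the shares are not set at equal base composition. A core was present in the window of Pgk1 as it was in the 5 others, and a match marks letters, not binding.

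Levels below are log2 intensities scaled to each array's 75th percentile, so a level near 0 is bright and one near -8 is close to the glass. They can be compared between samples for 1 gene but not between genes. A gene was called when limma's test, adjusted by Benjamini-Hochberg over all genes tested, gave a p under 0.05. On 31 of 35 arrays between 21.8% and 40.7% of probes were above background. The other 4, liver Trm 3 (12.2%), whole PBMC 1 (7.80%), whole liver 2 (64.7%) and blood Tem 3 (35.5%, with a median log2 background of 6.07 against 7.96 to 8.67 on the other Tem arrays), stood apart. Of 10 general CD8 T cell markers, 9 or 10 were above background on every sorted array, but markers of tissue cells were also measured in the Trm samples and are given beside the results. As bulk RNA was measured, fewer cells of a type and less RNA per cell cannot be told apart.

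Across the sorted cells Pfkfb4, Ldhb, Hk2 and Pdk1 were each called in 3 comparisons, though Hk2 entered the tests through intestine Trm alone. The enzymes Gpi1, Aldoa, Tpi1, Gapdh, Pgk1, Pgam1, Eno1, Pkm and Ldha were called in none. Of the 33 members tested, 16 (48.5%) were called in at least 1 of the 6 comparisons between sorted groups and 17 in none, beside 55.9% of all 8622 genes called in at least 1. Against blood Tem, 14 members (42.4%) were called in at least 1 organ, beside 49.2% of all genes, and 0 in all 3, beside 1.33%. By these counts the members were not called more often than other genes. The 3 comparisons with Tem share the same 6 Tem arrays.

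**Figure D1:**
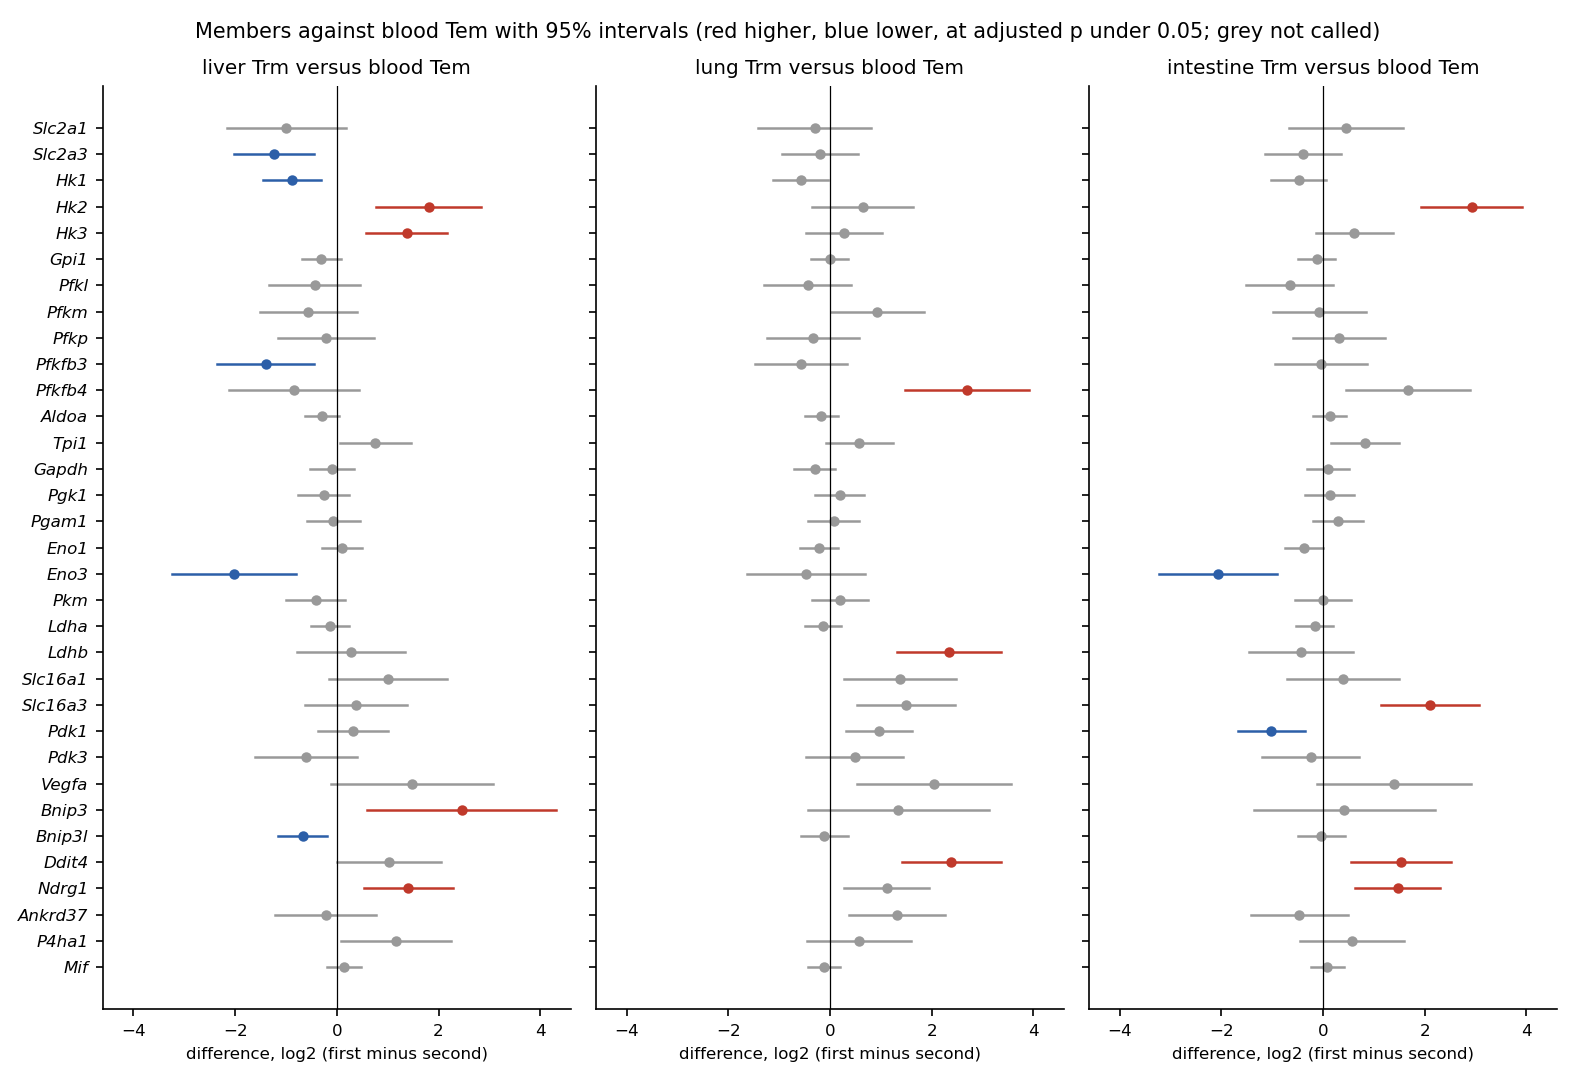
Difference in log2 level between Trm and blood Tem for each of the 33 members tested, by organ (x axis, log2 units; y axis, gene), with 95% confidence intervals; red marks genes called higher in Trm, blue called lower and grey not called. Lung shows 3 red points (Pfkfb4, Ldhb and Ddit4), and Gpi1, Aldoa, Gapdh, Pgk1, Pgam1, Eno1, Pkm and Ldha are grey in all 3 panels.

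In lung Trm 3 members were higher than in Tem and 0 lower, where 3.13% of all genes were called (2.1% higher and 1.03% lower). The members' median difference was 0.20 against -0.10 for all genes tested. Ddit4, Pfkfb4 and Ldhb were raised about 5- to 6-fold, and all 3 were higher on each of the 6 slides that carried both groups and stayed called under each of 22 alternative analyses.

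Pfkfb4 makes and breaks down fructose 2,6-bisphosphate and so tunes phosphofructokinase. Lung Trm arrays ran from -4.30 to -1.82 (median -2.95), and Tem arrays from -8.75 to -4.29 (median -5.26). The groups touch only at lung Trm 5 and Tem 3. The difference was 2.69 (SE 0.59, adjusted p = 0.0104), or 6.46-fold.

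Ldhb encodes the heart-type lactate dehydrogenase subunit, which favors the conversion of lactate back to pyruvate. On lung Trm arrays 1 to 6 its level was -0.81, -0.23, -2.47, -3.12, -3.10 and -1.02, and in Tem it ran from -5.08 to -3.32 (median -4.04). All 6 lung arrays lay above all Tem arrays, with arrays 1, 2 and 6 far above. The difference was 2.34 (SE 0.49, adjusted p = 0.00781), or 5.07-fold.

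Ddit4 encodes REDD1, an inhibitor of mTORC1 that is switched on by low oxygen and stress. Its lung Trm levels ran from -2.31 to -0.80 (median -1.07) and its Tem levels from -4.62 to -2.84 (median -3.88), without overlap. The difference was 2.39 (SE 0.47, adjusted p = 0.00469), or 5.24-fold.

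Markers of lung tissue cells were measured in the same samples. Of 7 lung epithelium markers 4 were called higher in lung Trm than in Tem, as were 4 of 6 macrophage and 3 of 4 neutrophil markers, and the summed level of the epithelial list was 3.55, 2.97, 2.66, 0.74, 1.1 and -2.10 on lung Trm arrays 1 to 6, against -2.64 to -1.68 in Tem. Lung Trm 6, whose epithelial sum lay within the Tem range, had Ldhb at -1.02, Pfkfb4 at -3.63 and Ddit4 at -2.31, each above every Tem array. Its macrophage sum, 0.82, lay above the Tem range of -4.28 to -3.10, and what those cells add to the 3 genes was not tested.

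**Figure D2:**
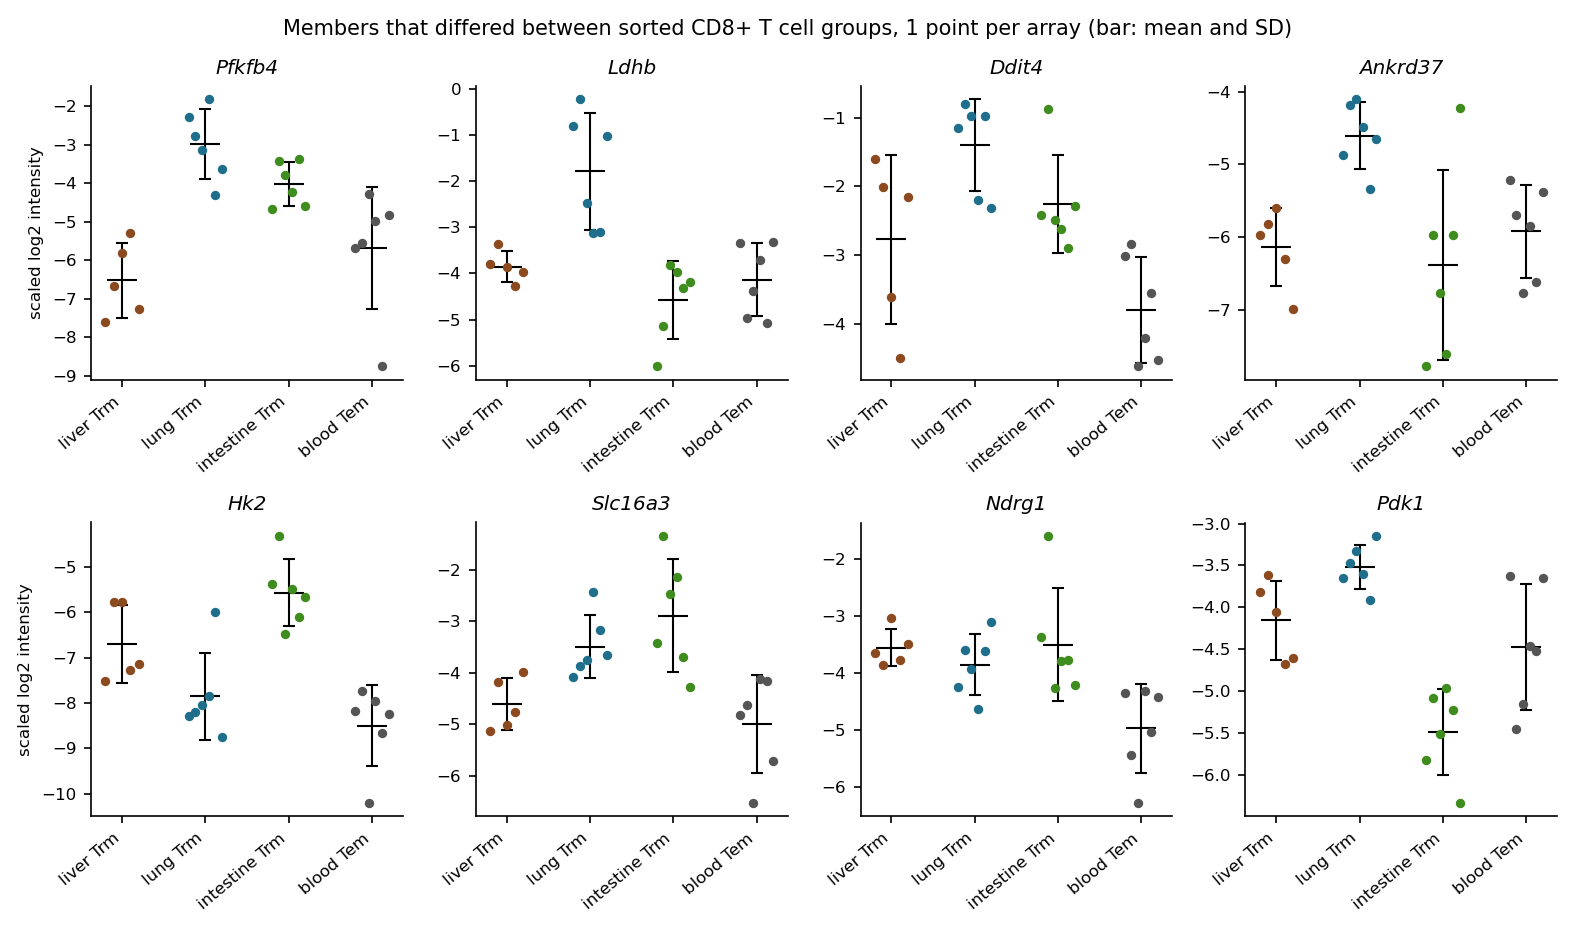
Scaled log2 level of 8 members on each sorted array (points) with group means (bars), by group: liver, lung and intestine Trm and blood Tem. Pfkfb4, Ldhb and Ddit4 are highest in lung Trm, Hk2 and Slc16a3 in intestine Trm, and Pdk1 is lowest in intestine Trm.

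In intestine Trm 6 members were called against Tem, 4 higher and 2 lower, where 17.8% of all genes were called (8.11% higher and 9.65% lower). The median difference was 0.10 for members and -0.03 for all genes. Hexokinase 2, the lactate carrier Slc16a3 and the HIF targets Ndrg1 and Ddit4 were higher, and muscle-type enolase Eno3 and pyruvate dehydrogenase kinase Pdk1 were lower.

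Hk2 is the inducible hexokinase that sits on the outer mitochondrial membrane. Intestine Trm arrays read -5.38, -4.31, -6.48, -5.49, -6.10 and -5.66, and Tem arrays ran from -10.20 to -7.74 with none above background. Every intestine array was above every Tem array. The fitted difference was 2.93 (SE 0.48, adjusted p = 0.000215), and because no Tem array measured the gene it is bounded as at least 1.79-fold. Hk2 was above background on 4 intestine, 1 liver and 1 lung array, so it entered the tests through intestine Trm alone. The p-value does not allow for that.

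Slc16a3, or MCT4, is the carrier that exports lactate from highly glycolytic cells. Its levels were -4.28 to -1.34 in intestine Trm (median -2.94) and -6.52 to -4.12 in Tem (median -4.72). Only intestine array 6 fell among the Tem arrays. The difference was 2.10 (SE 0.46, adjusted p = 0.00323), or 4.29-fold, and a second probe for the gene gave 2.73.

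Ndrg1, a stress-induced gene that HIF raises, ran from -4.27 to -1.60 in intestine Trm (median -3.78) and from -6.28 to -4.32 in Tem (median -4.73), with no overlap. The difference was 1.47 (SE 0.40, adjusted p = 0.0145). Ddit4 was higher by 1.53 (SE 0.47, adjusted p = 0.0277), with intestine levels of -2.90 to -0.87, but 7 of 22 alternative analyses lost that call. Among these was leaving out intestine Trm 2, the highest array of the group for Hk2, Slc16a3, Ndrg1, Ddit4, Pfkfb3 and Vegfa.

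Eno3, the muscle-type enolase, was the clearest member to fall. Intestine levels ran from -6.55 to -3.52 (median -4.61) and Tem levels from -3.76 to -2.23 (median -2.43), overlapping only through Tem 1. The difference was -2.06 (SE 0.56, adjusted p = 0.0135). Pdk1, which switches pyruvate dehydrogenase off and is a HIF target, fell by 1.01 (SE 0.31, adjusted p = 0.0282), a call lost in 8 of 22 alternatives.

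Markers of gut tissue cells were higher in these samples too. All 6 Paneth and goblet cell markers tested, 3 of 3 enterocyte and 3 of 4 muscle markers were called higher in intestine Trm than in Tem. The Paneth and goblet sum was 2.76, 2.47, -0.41, 1.45, 1.58 and -0.94 on arrays 1 to 6, against -5.78 to -4.6 in Tem. Intestine Trm 2 also had the highest muscle sum (2.22, others -2.92 to 1.03) and enterocyte sum (0.05, others -2.97 to -1.75) and the lowest CD8 sum (2.57, others 2.80 to 3.71) of its group, and their part in the 4 raised members was not tested. Scaling over all probes turned the 4 higher and 2 lower members into 3 and 3, and the split over all genes from 699 higher and 832 lower into 599 and 1368.

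In liver Trm 9 members were called against Tem, 4 higher and 5 lower, where 40.3% of all genes were called (15% higher and 25.4% lower). The median difference was -0.13 for members and -0.28 for all genes. The transporter Slc2a3, Hk1, the activator enzyme Pfkfb3, Eno3 and Bnip3l were lower, and Hk2, Hk3, Bnip3 and Ndrg1 higher. Most of these calls were lost without 2 arrays: leaving out liver Trm 3 and Tem 3 kept Hk3 alone among members, and 1778 genes in all rather than 3478; without liver Trm 3 alone 5 members were called.

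Slc2a3, or GLUT3, a high-affinity glucose transporter of lymphocytes, read -4.40, -4.22, -5.66, -5.44 and -5.55 on liver Trm arrays 1, 2, 3, 5 and 6, and -4.25 to -2.94 in Tem (median -3.85). Arrays 3, 5 and 6 were low, 2 of the 5 arrays were above background, and only array 2 reached the Tem range. The difference was -1.24 (SE 0.38, adjusted p = 0.0152).

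Pfkfb3, the activity that most strongly makes fructose 2,6-bisphosphate, showed the same order, at -3.84, -3.86, -5.70, -5.48 and -5.60 in liver Trm against -4.15 to -3.20 in Tem (median -3.43). Arrays 1 and 2 lay inside the Tem range and the others below it, and 2 of the 5 arrays were above background. The difference was -1.40 (SE 0.46, adjusted p = 0.0207).

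Eno3 read -3.16, -2.77, -5.56, -4.93 and -6.90 in liver Trm, against -3.76 to -2.23 in Tem. The difference was -2.02 (SE 0.59, adjusted p = 0.0125), again with arrays 1 and 2 inside the Tem range. Slc2a1, or GLUT1, the transporter that activated T cells raise, was split alike at -3.34, -2.22, -5.85, -5.34 and -5.81. Its difference from Tem, -1.0 with an interval of -2.16 to 0.17, was not called. Eno3 and Slc2a1 were each above background on 2 of the 5 liver Trm arrays.

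Hepatocyte markers were split over the same arrays. All 11 hepatocyte markers tested were called higher in liver Trm than in Tem, and all 5 of liver endothelium and Kupffer cells. The summed hepatocyte level was 2.11, 1.60, 5.50, 4.76 and 3.68 on arrays 1, 2, 3, 5 and 6, against -3.83 to -3.46 in Tem. Arrays 3, 5 and 6, with the 3 highest hepatocyte sums, were the 3 lowest for Slc2a1, Slc2a3, Pfkfb3 and Eno3 and the 3 highest for Hk3 and Bnip3. The median of probes never above background was also highest on arrays 3, 5 and 6, at -5.75, -7.27 and -7.13, against -7.52 and -8.19 on arrays 1 and 2. On array 3 Slc2a1, Slc2a3, Pfkfb3 and Eno3 read -5.85, -5.66, -5.70 and -5.56, close to that background median of -5.75. The part of hepatocyte RNA or of background in these differences was not tested.

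**Figure D3:**
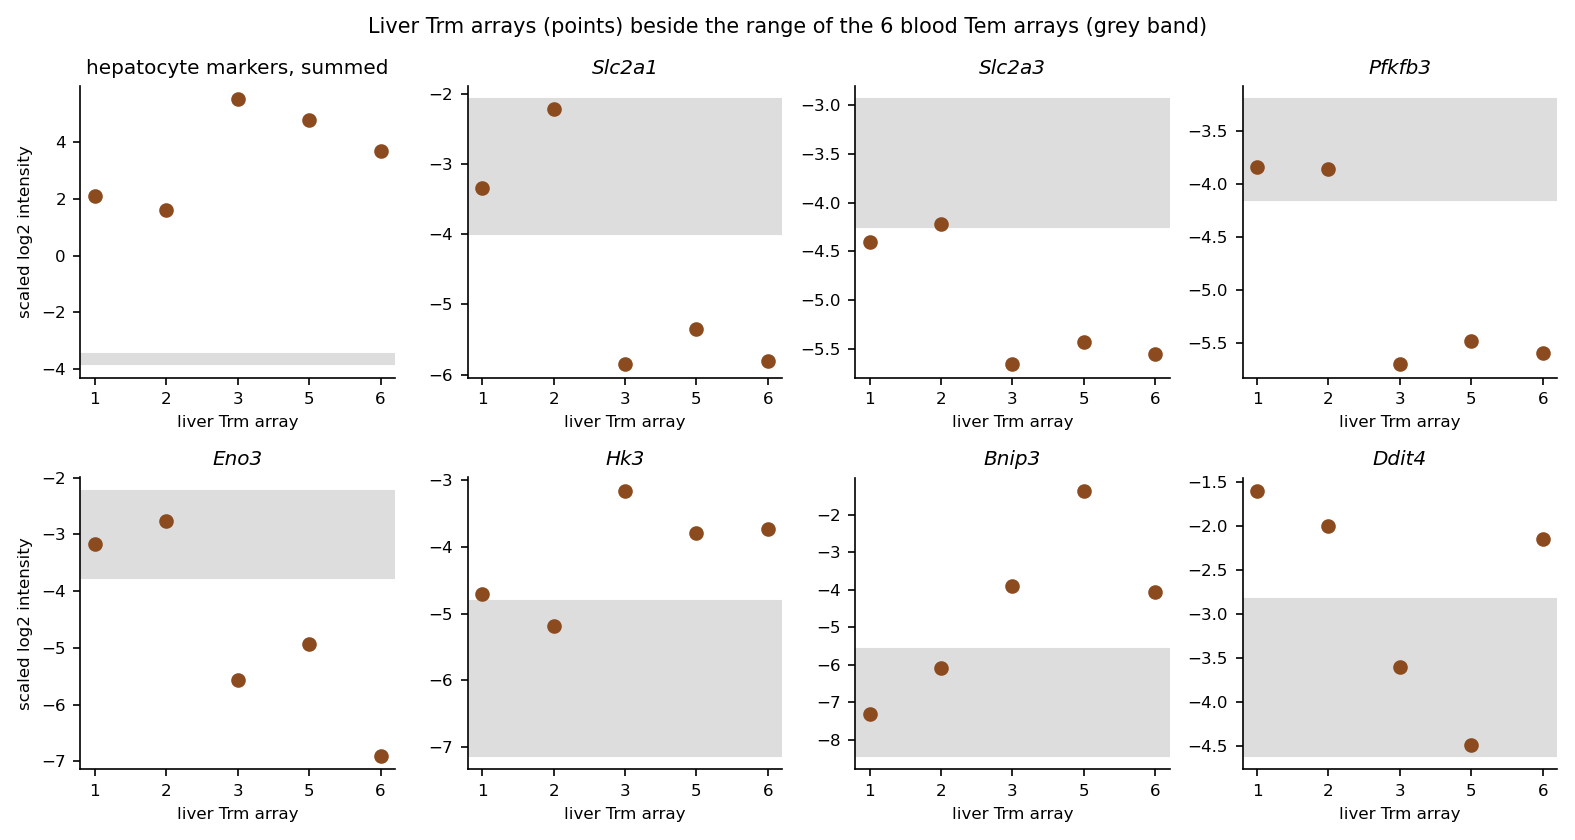
Summed hepatocyte marker level and the scaled log2 level of 7 members on the 5 liver Trm arrays; the grey band is the range of the 6 Tem arrays. On arrays 3, 5 and 6 the hepatocyte sum is highest while Slc2a1, Slc2a3, Pfkfb3 and Eno3 lie below the Tem band and Hk3 and Bnip3 above it.

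Hk1, the hexokinase most cells express, read -0.54, -0.30, -0.98, -1.62 and -0.99 in liver Trm and -0.34 to 0.19 in Tem, a difference of -0.88 (SE 0.28, adjusted p = 0.0171). Hk3, a hexokinase typical of myeloid cells, read -4.71, -5.18, -3.16, -3.79 and -3.73 against -7.13 to -4.81, a difference of 1.37 (SE 0.38, adjusted p = 0.0103) that was called in each of 21 alternatives. Probes never above background differed by about as much between these groups, 1.33. The part of that shift in the Hk3 difference was not tested. Of 4 neutrophil markers 3 were called higher in liver Trm. The neutrophil sum was 1.26, 1.92, 1.59, 2.04 and 1.63 on liver Trm arrays 1, 2, 3, 5 and 6, against 0.98 to 1.67 in Tem. What neutrophils add to the Hk3 level was not tested.

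Bnip3, a mitochondrial receptor for mitophagy that HIF raises, ranged widely at -7.32, -6.08, -3.89, -1.36 and -4.06 in liver Trm, against -8.42 to -5.57 in Tem. Arrays 3, 5 and 6 lay above every Tem array. It was above background on 2 liver and 1 Tem array, and the difference of 2.45 (SE 0.90, adjusted p = 0.0347) was called in 11 of 19 alternatives. Its relative Bnip3l, or NIX, read -1.29, -0.97, -2.29, -1.55 and -1.62 against -1.38 to -0.62, a fall of 0.67 (SE 0.24, adjusted p = 0.0276), called in 13 of 21.

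Ndrg1 lay between -3.86 and -3.04 in liver Trm, above all Tem arrays, with a difference of 1.41 (SE 0.42, adjusted p = 0.0142). Hk2 was higher by 1.80 (SE 0.50, adjusted p = 0.0104), but it was above background on 1 liver array and 0 Tem arrays. Probes never above background were themselves 1.33 higher in liver Trm than in Tem (0.23 in lung and 0.70 in intestine), and no fold is given for Hk2.

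The direction of the liver calls moved with the scaling. Scaling over all probes gave 4 higher and 11 lower members, and background correction by normexp 9 higher and 3 lower. Over all genes the counts were 1289 higher and 2189 lower as reported, 966 and 3898 over all probes, and 1964 and 957 with normexp, with the median difference moving from -0.28 to -0.75 and 0.19.

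Among the genes of glucose entry, Slc2a1 was not called in any comparison of sorted cells, with ranges of -4.74 to -2.83 in lung (median -3.91), -3.61 to -2.24 in intestine (median -3.07) and -3.99 to -2.08 in Tem (median -3.83). Slc2a3 ran from -4.70 to -3.64 in lung and from -5.57 to -3.43 in intestine, both overlapping Tem. Hk1 stayed close in lung, at -1.68 to -0.05, and in intestine, at -0.93 to -0.14.

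The phosphofructokinases Pfkl, Pfkm and Pfkp, which carry out the committed step, were dim, with 15, 7 and 14 of the 23 sorted arrays above background. Pfkp, the platelet-type form, had medians of -5.06 in liver Trm, -5.29 in lung, -4.86 in intestine and -4.90 in Tem, and no comparison was called. Pfkm, which entered the tests through lung Trm alone, was called once, higher in lung than in liver Trm (adjusted p = 0.0343). As 0 liver arrays and 3 lung arrays were above background, no fold is given. That call was lost in 3 of 17 alternatives. Pfkfb3 in lung (-4.77 to -3.32) and intestine (-4.83 to -1.72) overlapped Tem.

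Most enzymes shared by all glycolytic cells were bright. Aldoa, Gapdh, Pgk1, Pgam1, Eno1, Gpi1, Tpi1, Pkm and Ldha, which run from glucose 6-phosphate to lactate, and the cytokine Mif, a HIF target, were above background on all 23 sorted arrays and called in none of the 6 comparisons. Such a result does not show that they were equal, but the intervals limit how far the probes used can differ under the scaling used.

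Ldha, the muscle-type subunit that makes lactate, had liver Trm levels of 0.70, 0.65, 1.12, 0.94 and 1.06 and medians of 0.84 in lung, 0.87 in intestine and 1.03 in Tem. Its group ranges overlap, and over the 6 comparisons its 95% intervals stayed between -0.52 and 0.37. A second Ldha probe, above background on all lung Trm and Tem arrays, gave 0.45 in lung against Tem and -0.54 in intestine against lung. In the other comparisons its differences lay inside those bounds. Aldolase A read 0.40, 0.52, 0.63, 0.36 and 0.62 in liver, with medians of 0.69, 0.89 and 0.79 in lung, intestine and Tem and intervals from -0.63 to 0.76. Its liver arrays all lay below its Tem and intestine arrays, and 3 of 21 alternatives called it lower in liver Trm than in Tem.

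Gapdh read 0.76, 1.31, 1.38, 1.70 and 1.23 in liver Trm, with medians of 1.06 in lung, 1.46 in intestine and 1.26 in Tem, and intervals from -0.71 to 0.81. Pgk1, which yields the first ATP of the path, read -1.86, -1.79, -1.41, -1.13 and -1.85 in liver, with medians of -1.12, -1.23 and -1.41, and intervals from -0.76 to 0.95. Pkm, pyruvate kinase, read -0.73, -0.75, -0.92, -1.55 and -0.89 in liver, with medians of -0.33, -0.63 and -0.54, and intervals from -0.99 to 1.19. For these 3 enzymes no group stood clear of all the others. In lung against liver Trm, Pkm was called higher in 4 of 21 alternatives and Pgk1 in 1 of 21.

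Intervals for the others reached from -0.59 to 0.53 for Mif, -0.69 to 0.68 for Gpi1, -0.86 to 0.49 for Eno1, -0.59 to 0.88 for Pgam1 and -0.88 to 1.49 for Tpi1. Tpi1 came nearest a call (lowest adjusted p = 0.0733), and in liver against Tem 7 of 21 alternatives called it higher. Gapdh, Pgam1 and Mif were called in none of the alternatives run on the 6 comparisons, and Ldha in 1, lower in liver Trm than in Tem when scaling used all probes. That scaling also called Gpi1, Aldoa, Pgk1 and Pkm lower there. Its differences for Ldha (-0.60), Gpi1 (-0.78) and Aldoa (-0.76) lay outside the intervals given here. Those for Pgk1 (-0.73) and Pkm (-0.89) lay inside. The 7 Gapdh probes differed among themselves, and 2 dimmer ones gave -1.06 and -1.19 in liver against Tem where the brightest gave -0.09. In the same comparison a second Tpi1 probe gave 1.44 where the one used gave 0.76. For Mif 2 further probes gave -0.38 each where the one used gave 0.14. The other Gpi1 probes, at -0.32 and -0.41, lay near the one used, at -0.31.

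**Figure D4:**
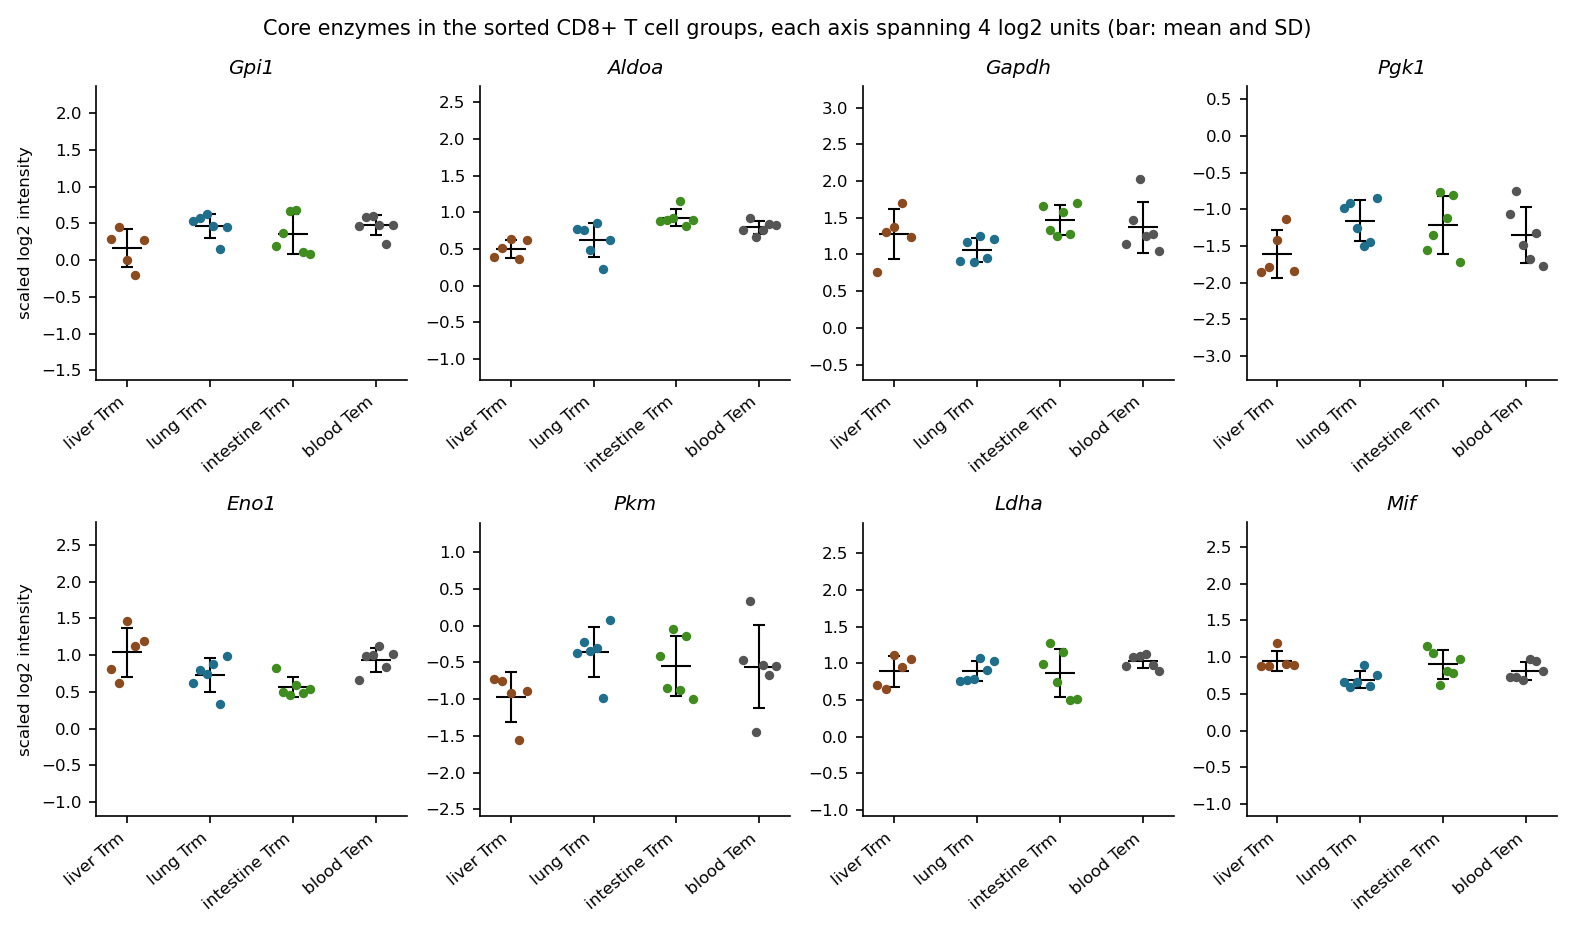
Scaled log2 level of 7 shared glycolytic enzymes and Mif on each sorted array (points) with group means (bars); every panel spans 4 log2 units. Most group ranges overlap; for Aldoa the liver Trm arrays lie below all Tem and intestine Trm arrays.

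Among Trm populations Pfkfb4, Ldhb, Pdk1, Slc16a3, Hk2, Hk3, Pfkm and Ankrd37 were called in at least 1 comparison. Lung against liver Trm gave 4 higher and 1 lower member (17.8% of all genes called, 9.28% higher and 8.52% lower; median 0.37 for members, 0.23 for all genes). Pfkfb4 was at -7.60, -6.67, -5.80, -5.30 and -7.26 on the liver arrays, none above background, so lung Trm exceeded it at least 4.31-fold (fitted difference 3.54, SE 0.62, adjusted p = 0.000874). Ldhb read -3.80, -3.36, -3.87, -4.27 and -3.97 in liver, below every lung array, with a difference of 2.06 (SE 0.52, adjusted p = 0.0134).

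The HIF target Ankrd37, an ankyrin repeat protein, was above background on 6 lung and 0 liver arrays and at least 1.35-fold higher in lung (adjusted p = 0.0361). Hk3 was lower in lung by 1.1 (adjusted p = 0.0493), where probes never above background differed by -1.09. Ankrd37 was called in 12 of 21 alternatives and Hk3 in 9, and both calls were lost with the slide as a block. The count of 5 fell to 2 on leaving out liver Trm 5 or 6 or lung Trm 1, 2 or 6, and rose to 9 without liver Trm 2 or lung Trm 5. Quantile normalization gave 12 higher and 1 lower member, scaling over all probes 15 and 0, and normexp 2 and 2. The median difference of all genes moved with these settings, from 0.23 to 0.41, 0.68 and -0.18. Pfkfb4 and Ldhb were called in each of 21 alternatives. Ddit4, uncalled here, was called higher in lung in 8 of 21, and Slc2a3 in 9.

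Intestine against liver Trm gave 2 higher and 1 lower member (11.7% of all genes called, 8.87% higher and 2.84% lower; median 0.20 for members, 0.11 for all genes). Pfkfb4, with intestine levels of -4.68 to -3.38 (median -4.01), was at least 2.12-fold higher (fitted 2.51, adjusted p = 0.00959), though not with normexp. Slc16a3, at -5.12, -4.19, -5.01, -4.76 and -3.98 on the liver arrays, was 1.72 higher in intestine (SE 0.49, adjusted p = 0.0228), called in 16 of 21 alternatives. Pdk1 was lower in intestine by 1.34 on the log2 scale (SE 0.33, adjusted p = 0.00973) and called in all 21. The split became 5 and 2 with quantile normalization and 0 and 1 with normexp, where the median of all genes was 0.14 and -0.15.

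Intestine against lung Trm gave 1 higher and 3 lower members (9.53% of all genes called, 5.28% higher and 4.26% lower; median -0.06 for members, 0.04 for all genes). Ldhb set the organs apart most, with intestine arrays at -6.01, -5.14, -3.82, -3.97, -4.31 and -4.19, all below lung, and a difference of -2.78 (SE 0.49, adjusted p = 0.000646). Pdk1 ran from -6.34 to -4.97 in intestine (median -5.37) and from -3.91 to -3.15 in lung (median -3.54), with a difference of -1.97 (SE 0.31, adjusted p = 0.000252). These groups did not overlap for either gene, and both were lower in intestine on all 6 shared slides.

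Hk2 went the other way, at -8.75 to -6.00 in lung, where only 1 array was above background, and was 2.29 higher in intestine (SE 0.48, adjusted p = 0.00333). It had entered the tests through intestine Trm alone, with 4 arrays above background. Ankrd37 was lower in intestine by 1.78 (SE 0.46, adjusted p = 0.015). The first 3 were called in all alternatives that could test them, and Ankrd37 in 20 of 21. The split was 1 higher and 5 lower with quantile normalization and 1 and 2 with normexp, where the median of all genes was -0.17 and 0.14.

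The oxygen sensors themselves could hardly be read. Hif1a, the regulated HIF-1 subunit, was above background on 0 of 35 arrays, with levels on the all-array scale of -9.73 to -6.79 in sorted cells. Egln1, the main HIF prolyl hydroxylase, was above background on 1 array, of whole liver. Egln3, a hydroxylase that HIF itself raises, was above background on 2 arrays of each sorted group, with medians of -5.80 in liver Trm, -6.61 in lung, -6.53 in intestine and -6.79 in Tem, and the brain-type aldolase Aldoc on 1 or 2. These 4 were not tested in sorted cells, and an unread probe says nothing of the level of the transcript or protein.

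Vegfa and P4ha1, also HIF targets, were not called. Vegfa, the angiogenic growth factor, was above background on 4 of 23 sorted arrays: liver Trm read -7.47, -7.33, -5.64, -7.21 and -7.05, lung ran from -8.71 to -3.88, intestine from -7.81 to -4.40 and Tem from -10.11 to -7.67, and no difference was called. P4ha1, which hydroxylates collagen, read -5.10, -5.34, -3.76, -4.55 and -4.61 in liver, with medians of -5.15, -5.50 and -5.28 in lung, intestine and Tem, with a lowest adjusted p of 0.0743 and intervals from -1.67 to 2.24, and 3 of 21 alternatives called it higher in liver Trm than in Tem. The pyruvate dehydrogenase kinase Pdk3 and the carrier Slc16a1, or MCT1, were above background on 7 and 3 sorted arrays and not called.

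Of 20 further genes of glycolysis and gluconeogenesis tested, liver Trm had 7 higher and 3 lower than Tem, lung 0 and 0, intestine 2 and 1. The called shares were 50%, 0% and 15%, beside 40.3%, 3.13% and 17.8% of all genes. Fructose bisphosphatase Fbp1, a gluconeogenic enzyme abundant in hepatocytes, was at least 28.0-fold higher in liver Trm. Of 17 further HIF pathway genes 3 were higher and 1 lower in liver, 0 and 0 in lung, 4 and 0 in intestine, where the transcription factor Bhlhe40 was 3.46 higher (SE 0.64, adjusted p = 0.000678). Those shares were 23.5%, 0% and 23.5%.

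Among 14 upstream regulators tested, of which 28.6% were called in liver, 7.14% in lung and 35.7% in intestine, Myc, which drives glycolytic genes in activated T cells, was higher than in Tem in lung (2.53, SE 0.58, adjusted p = 0.0151) and intestine (2.18, SE 0.58, adjusted p = 0.0117). It was above background on 6 lung, 3 intestine and 2 Tem arrays. Lung had no other call in this list. Intestine also had Irf4 and Stk11 higher and Tsc1 and Rptor lower. Liver Trm had 0 higher and 4 lower, among them the kinase Akt1 at -1.37 (SE 0.30, adjusted p = 0.00293), the same direction as the median of all genes there.

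Whole organs set the scale for tissue cells. They were run on other slides and another scan day than the sorted cells, so cell type and batch cannot be told apart in the comparisons of Trm with organ. Levels from here on were scaled over all 35 arrays, and Vegfa was read with another probe than in the sorted cells above.

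**Figure D5:**
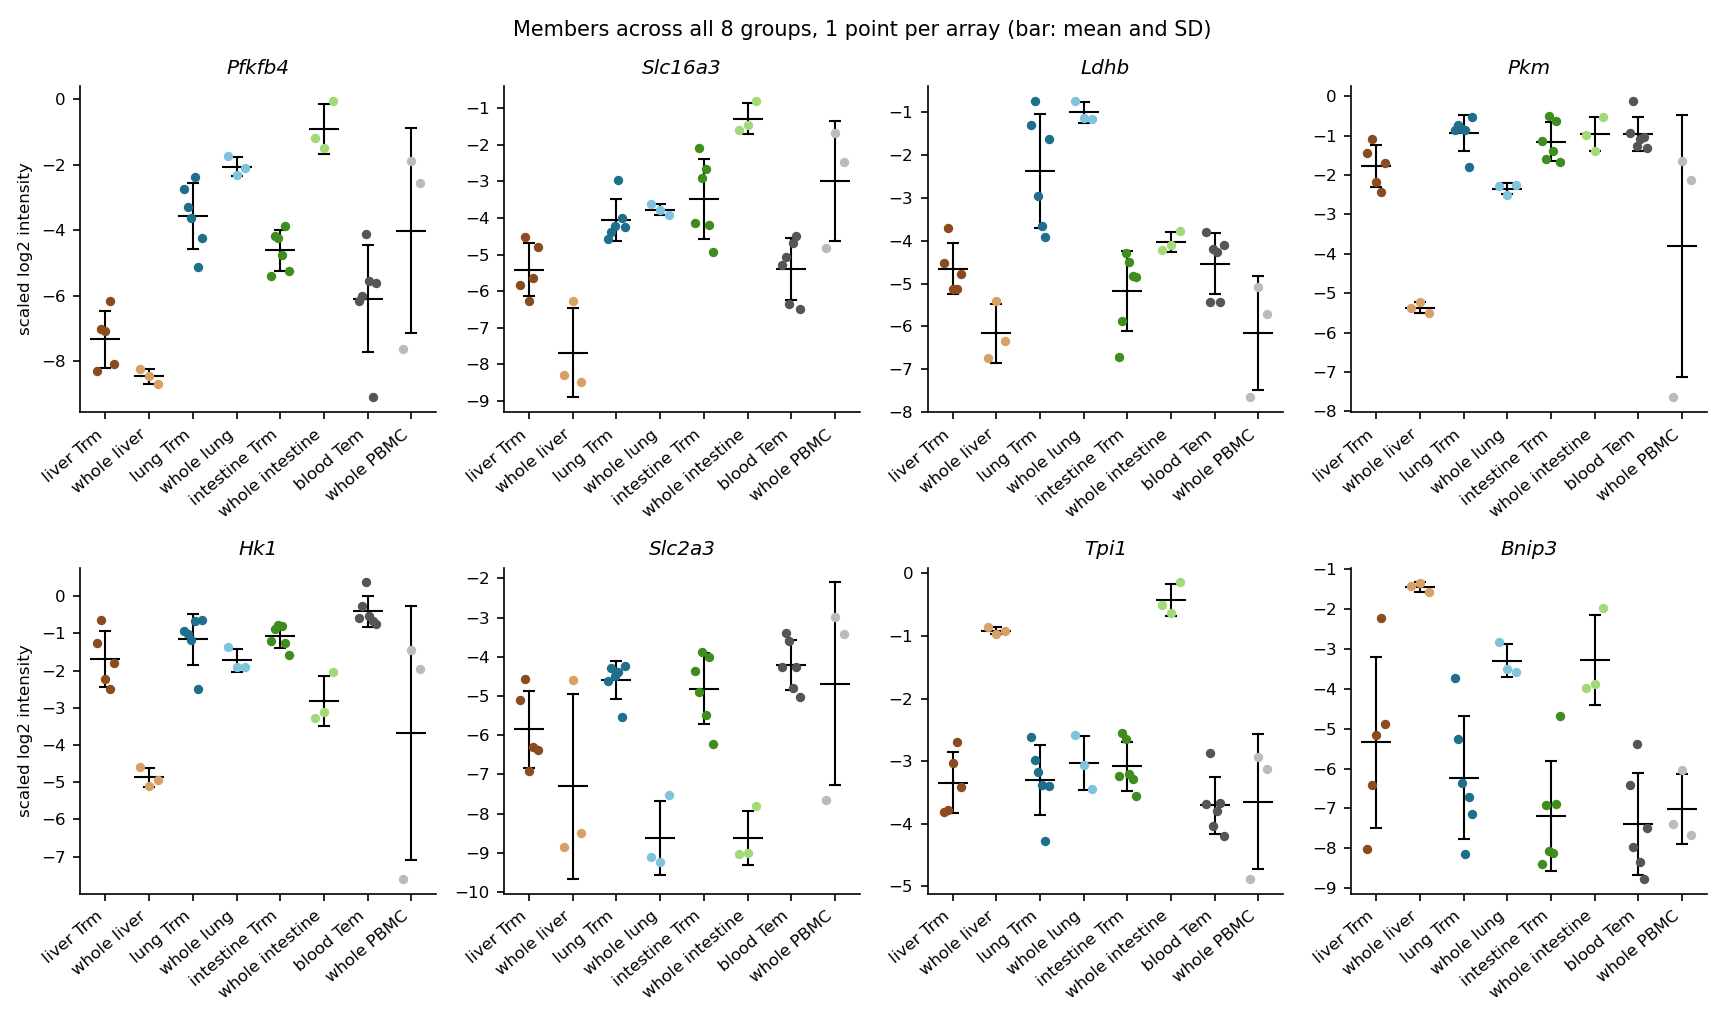
Scaled log2 level of 8 members on each of the 35 arrays (points) with group means (bars), in the 8 groups. Pfkfb4 and Slc16a3 are lowest in whole liver and highest in whole intestine, and Slc2a3 is near background in whole lung and intestine.

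Between organs the members were called in 31.4% (liver against lung), 37.1% (intestine against lung) and 31.4% (liver against intestine) of tests, and the last lies near the share of all genes. Whole liver had 4 members higher and 7 lower than whole lung (23% of all genes called, 11% higher and 12.1% lower; median -0.09 for members, 0.07 for all), and 3 higher and 8 lower than whole intestine (30.5% called, 16.5% higher and 14% lower; medians -0.85 and 0.08). Whole intestine had 10 higher and 3 lower than whole lung (25% called, 12.9% higher and 12.1% lower; medians 0.76 and -0.06). Without whole intestine 3 the 13 calls for intestine against lung and the 11 for liver against intestine both fell to 5, without whole lung 2 the former fell to 7, and without whole liver 3 the latter fell to 7. Quantile normalization gave 7 higher and 9 lower for liver against lung and 1 and 10 for liver against intestine, scaling over all probes 3 and 9 and 1 and 15, and normexp 9 and 7 and 3 and 11. In that order of settings the median of all genes was -0.20, -0.43 and 0.11 for liver against lung. For liver against intestine it was -0.21, -0.33 and 0.16.

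Pfkfb4 spanned the widest range, with means of -8.45 ± 0.23 (SD, n = 3) in whole liver, where it was not above background, -2.06 ± 0.29 in lung and -0.91 ± 0.76 in intestine, so that liver was at least 22.8-fold below lung and at least 50.6-fold below intestine. Slc16a3 followed, at -7.68 ± 1.22, -3.77 ± 0.15 and -1.28 ± 0.42, with liver at least 6.94-fold and 39.0-fold below. Pkm stood at -5.37 ± 0.14, -2.34 ± 0.13 and -0.96 ± 0.44. For all 3 genes the order was liver, lung, intestine, and liver lay below the other organs beyond their spread.

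Ldhb was highest in whole lung, at -1.0 ± 0.24, against -4.03 ± 0.23 in intestine and -6.16 ± 0.69 in liver. Among the sorted groups, too, Ldhb was highest in lung Trm (-2.36 ± 1.33, SD, n = 6). Tpi1 was lowest in lung, at -3.03 ± 0.44, against -0.91 ± 0.06 in liver and -0.43 ± 0.25 in intestine. Bnip3 had its highest mean in whole liver, at -1.44 ± 0.12, against -3.30 ± 0.42 in lung and -3.28 ± 1.13 in intestine. Neither difference from liver was called.

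Liver Trm had 4 members higher and 4 lower than whole liver, where 32.3% of all genes were called, 8.53% higher and 23.7% lower (median 0.33 for members, -0.33 for all). Pkm was higher by 3.60 (SE 0.70, adjusted p = 0.000108) and Hk1 by 3.19 (SE 0.73, adjusted p = 0.000832). Slc16a3 and Slc2a1, not above background in whole liver, were at least 2.24- and 2.39-fold higher. Bnip3 (-3.90), Aldoc (-3.38) and Tpi1 (-2.44) were lower, as was Pfkm, at least 1.51-fold, with 0 liver Trm arrays above background. Quantile normalization gave 8 higher and 4 lower, scaling over all probes 9 and 4, and normexp 6 and 6. Under these the median of all genes was -0.005, 0.08 and -0.0007.

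Lung Trm had 10 higher and 5 lower than whole lung (41.5% of all genes called, 15.7% higher and 25.8% lower; median 0.48 for members, 0.09 for all). Slc2a3 was at least 5.83-fold higher, with 0 whole lung arrays above background, Pdk1 higher by 2.68 (SE 0.44, adjusted p = 6.38e-06), Ddit4 by 2.19 (SE 0.71, adjusted p = 0.0123) and Gapdh by 1.74 (SE 0.49, adjusted p = 0.00423). Slc2a1, Slc16a1, Pgk1, Mif, Eno1 and Gpi1 were also higher. Slc16a1 entered the tests through lung Trm alone, with 3 of its arrays and 0 of whole lung above background. Pfkfb4, with a mean of -3.56 ± 1.01 (SD, n = 6) in lung Trm, and Ldhb were not called against whole lung, while Bnip3, Pfkfb3, Hk2, Vegfa and P4ha1 were lower. Leaving out 1 array gave 10 to 15 calls, lowest without whole lung 3. The median of all genes was -0.30 in a fit of only these 2 groups. Without the 4 arrays that stood apart it was -0.31.

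Intestine Trm had 2 higher and 7 lower than whole intestine (31.8% of all genes called, 11.7% higher and 20.1% lower; median -0.37 for members, -0.01 for all). Both glucose transporters were higher, Slc2a3 at least 5.50-fold and Slc2a1 by 2.00 (SE 0.78, adjusted p = 0.0466). Pfkfb4 (-3.70), Slc16a3 (-2.20) and Ndrg1 (-2.10), all but Pfkfb4 called higher in intestine Trm than in Tem, were lower than in the organ. Bnip3, Aldoc, Tpi1 and Pgam1 were lower as well.

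The gap between Trm and organ differed by organ for several members. It was tested as a difference of differences, which called 6 members for liver against lung (16% of all genes called), 7 for intestine against lung (22.1%) and 4 for liver against intestine (14.5%). Pdk1 was above the organ in lung (2.68) but near it in liver (-0.02, difference of differences -2.71, adjusted p = 0.00227) and in intestine (0.25, -2.43, adjusted p = 0.00372). Pkm, above background on every array of these groups, was above whole liver (3.60) and near whole intestine (-0.19), a difference of 3.79 (SE 0.97, adjusted p = 0.00546).

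Blood Tem had 17 members higher and 2 lower than PBMC, where 55.2% of all genes were called, 43.9% higher and 11.3% lower (median 1.35 for members, 0.84 for all). These counts depended on 1 array. Without PBMC 1, on which 7.80% of probes were above background, 2 members were higher and 8 lower and 4 of the 19 calls remained. Quantile normalization gave 14 higher and 7 lower, scaling over all probes 12 and 8, and normexp 11 and 4. Under these the median of all genes was 0.42, 0.22 and 0.14. Gapdh (2.99, SE 0.49, adjusted p = 1.78e-05) and Mif (3.19, SE 0.56, adjusted p = 3.32e-05) were higher, and Slc16a3 lower (-2.40, SE 0.62, adjusted p = 0.00144), with and without that array.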

How the data were processed

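Single-color Agilent arrays measured RNA in 23 samples of sorted T cells and 12 of whole tissue or PBMC. The authors deposited scanner intensities per spot, extracted with Feature Extraction 11.0.1.1 per the file headers (10.7, and Partek, per the submitters' processing notes). The authors also deposited a log2 table, which differed from quantile-normalized intensities by a median of at most 0.000764, with a median of 8.55. Of 39429 probes 27508 matched exactly 1 gene in a list of RefSeq genes through their name in the scanner files, and 11921 matched none or several.

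Processed intensities were scaled on each array to the 75th percentile over probes detected on all arrays of the fit, and log2 was taken. Probes had to exceed background clearly in 3 or more arrays of some group, and a gene took its kept probe with the highest mean. Sorted groups were fitted together and all 8 groups in a second fit, with limma 3.58.1 in R 4.3.3 and Benjamini-Hochberg adjustment at 0.05. The script was tested on simulated data. The number of arrays limits the precision.

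"At least" folds set the bright group's mean against the lowest signal well above background, or the dim probe's own where higher. Alternatives were quantile normalization, scaling over all probes, normexp with offset 50 on median spot and background signals, the deposited table, other filters, the mean of probes, a block for the slide, a fit restricted to the groups at hand, and omission of single arrays.

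Values are given for 22 key members, and in each comparison with Tem or between Trm populations for up to 4 called members in each direction whose brighter group had all its arrays clearly over background; some others that were called are named too, chosen after their values were seen. Members and lists were chosen with earlier results of these data known. Slides carried the replicate numbers, but same-numbered samples did not deviate together (33 pairs, r from -0.36 to 0.44, median -0.01, 7 over 0.1).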

Additional observations from a re-analysis of the deposited data

Results flagged for a closer look

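In 16 of 132 groups of sorted arrays checked for a member, 1 array lay far from the others of its group; chance alone gives such a gap in about 5% of groups. In blood Tem these were Slc2a1 on array 3 (-2.08, nearest -3.46), Slc2a3 on array 2 (-2.94), Eno3 on array 1 (-3.76), and Gpi1 (0.22), Pfkfb3 (-4.15) and Pfkfb4 (-8.75) on array 5. In lung Trm they were Hk2 (-6.00) and Pfkl (-7.22) on array 5. In intestine Trm, array 2 stood out for Vegfa (-4.40, nearest -7.34), Ddit4 (-0.87, nearest -2.29) and Ndrg1 (-1.60, nearest -3.38), array 4 for Aldoa (1.16) and array 1 for Eno1 (0.82). In liver Trm, array 3 stood out for Vegfa (-5.64) and Mif (1.19) and array 5 for Pkm (-1.55).

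The gap between Trm and whole organ differed between organs in 17 of 105 tests of that difference. For liver minus lung it was 2.56 for Hk2, -2.16 for Tpi1, -2.56 for Pgk1, 2.87 for Ldhb, 2.56 for Slc16a3 and -2.71 for Pdk1. For intestine minus lung it was -2.38 for Tpi1, -2.31 for Pgk1, -1.95 for Eno1, -2.43 for Pdk1, -2.33 for Pdk3, 2.00 for Vegfa and -2.86 for Ankrd37. For liver minus intestine it was 4.84 for Pfkfb4, 3.79 for Pkm, 2.65 for Ldhb and 4.47 for Slc16a3. Several of these rest on groups with no array above background and are fitted values, not sizes: whole liver for Hk2 and Slc16a3, both liver groups for Pfkfb4, whole lung for Pdk3 and both intestine groups for Vegfa. This Vegfa probe is not the one used in the fit of sorted cells. On that other probe whole intestine was above background on 3 arrays and intestine Trm on 1.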

How the results depend on the processing

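Of 249 counts of called members recomputed under an alternative, 211 stayed within 1.5 times the reported count and 38 did not. Scaling over all probes gave 15 for liver Trm against Tem (9 reported), 15 for lung against liver Trm (5) and 13 for liver Trm against whole liver (8). Quantile normalization and the deposited log2 values each gave 13 for lung against liver Trm and 7 for intestine against liver Trm (3), where normexp gave 1. No filter gave 14 for liver Trm against Tem and 11 for lung against liver Trm. Fitting only the groups compared gave 5 for lung Trm against Tem (3), 14 for intestine Trm against whole intestine (9), 23 for whole liver against lung (11) and 22 for whole intestine against lung (13). Without liver Trm 3 and Tem 3 the count for liver Trm against Tem was 1. Leaving out those and whole liver 2 and PBMC 1, a choice made after seeing the data, gave 18 for liver Trm against whole liver, 16 for intestine Trm against whole intestine, 12 for Tem against PBMC (19) and 22 for whole liver against lung.

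Leaving out 1 array gave 5 to 11 for liver Trm against Tem, 2 to 9 for lung against liver Trm, 2 to 7 for intestine against liver Trm, 10 to 20 for Tem against PBMC, and 5 to 13 and 5 to 11 for whole intestine against lung and liver against intestine, both lowest without whole intestine 3. With the slide as a replicate block the sorted counts were 7, 3, 5, 4, 3 and 4 and the whole-organ counts 10, 10 and 10; since numbers did not pair the samples, this only shows a different fit. Among called members, only Pgam1 in Tem against PBMC changed sign, under both alternatives without PBMC 1 (lowest -0.07). Calls lost under the block were Bnip3 and Bnip3l in liver Trm and Pdk1 in intestine Trm against Tem, and Hk3 and Ankrd37 in lung against liver Trm among sorted cells. Dim members, above background on few arrays, limit what can be said of Hif1a, Egln1, Egln3, Vegfa and Slc16a1.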
